A study of Saccharomyces cerevisiae with 2 samples.

Results

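The core histone genes of budding yeast (Saccharomyces cerevisiae) form 4 divergent pairs, and nucleosome maps of these pairs were compared between cells without Fun30 and wild-type cells. HTA2 and HTB2 encode histones H2A and H2B, as do HTA1 and HTB1. HHT1 and HHT2 encode histone H3, and HHF1 and HHF2 encode histone H4. The 8 genes were chosen by name, and their nucleosomes by position. A nucleosome call belonged to a pair when its centre lay, in the coordinates of the deposited files, at 234.5 to 238 kb on chromosome 2 for HTA2-HTB2, at 254.5 to 257.7 kb on chromosome 2 for HHF1-HHT1, at 913.5 to 917 kb on chromosome 4 for HTB1-HTA1, and at 574.8 to 578 kb on chromosome 14 for HHT2-HHF2. These windows held 39 of 48132 calls in the fun30D library and 44 of 48019 calls in the Wild Type library. The rule used names and positions only, though it was written with earlier results of these data known.

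The mutant group was strain BY4741, a haploid laboratory strain, labelled fun30D, and the comparison group was the same strain labelled Wild Type. Both were grown in YPD, a rich medium, and fixed with paraformaldehyde. Nuclei were digested with micrococcal nuclease, which cuts the linker DNA between nucleosomes, and the single-nucleosome DNA was sequenced. There was 1 library per genotype, so no value has a replicate error and no test between genotypes was made. Any difference covers genotype, culture, digestion and library together, which cannot be told apart, and a culture that was not synchronized averages over the cell cycle. The labels name no synchronization.

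Each of these genes shares a promoter with its partner and is transcribed away from it, mostly during DNA replication, when new nucleosomes are needed. In yeast the activator Spt10 binds upstream elements in these promoters, and the HIR complex represses the pairs outside S phase, except HTA2-HTB2. Fun30 is an ATP-dependent remodelling enzyme that can slide nucleosomes and exchange their histone dimers, and the study asked how it places nucleosomes near promoters.

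As a check of the labels, the longest run of neighbouring Wild Type calls without a fun30D counterpart held 18 calls on chromosome 1, the chromosome that carries FUN30, and the fun30D library had 0 calls there. The deposited occupancy is a signal of unstated scale, its distribution is nearly the same in both files, and the lowest value was 0.0824 in each. Weaker nucleosomes are therefore not listed, and the depth of the libraries is unknown. Occupancy is compared here between places within a library and, as deposited, between the libraries. It does not measure total amount.

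The gene table of assembly R64 lists HTA2 (YBL003C), HTB2 (YBL002W), HHF1 (YBR009C), HHT1 (YBR010W), HTB1 (YDR224C), HTA1 (YDR225W), HHT2 (YNL031C) and HHF2 (YNL030W), with the first gene of each pair name on the side of lower coordinates. Their lengths are short, from 312 bp for HHF1 and HHF2 to 411 bp for HHT1 and HHT2. No source used here names the build of the files, so no R64 position was used. Instead each window was divided by distance from its middle. Up to 350 bp from the middle is called the middle zone, where the shared promoter lies, and from there to 800 bp is called the side of the respective gene. The zones approximate promoter and genes and are not gene boundaries. Calls beyond 800 bp from the middle, towards the neighbouring genes, are also counted among the histone calls and pairs of a window.

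**Figure D1:**
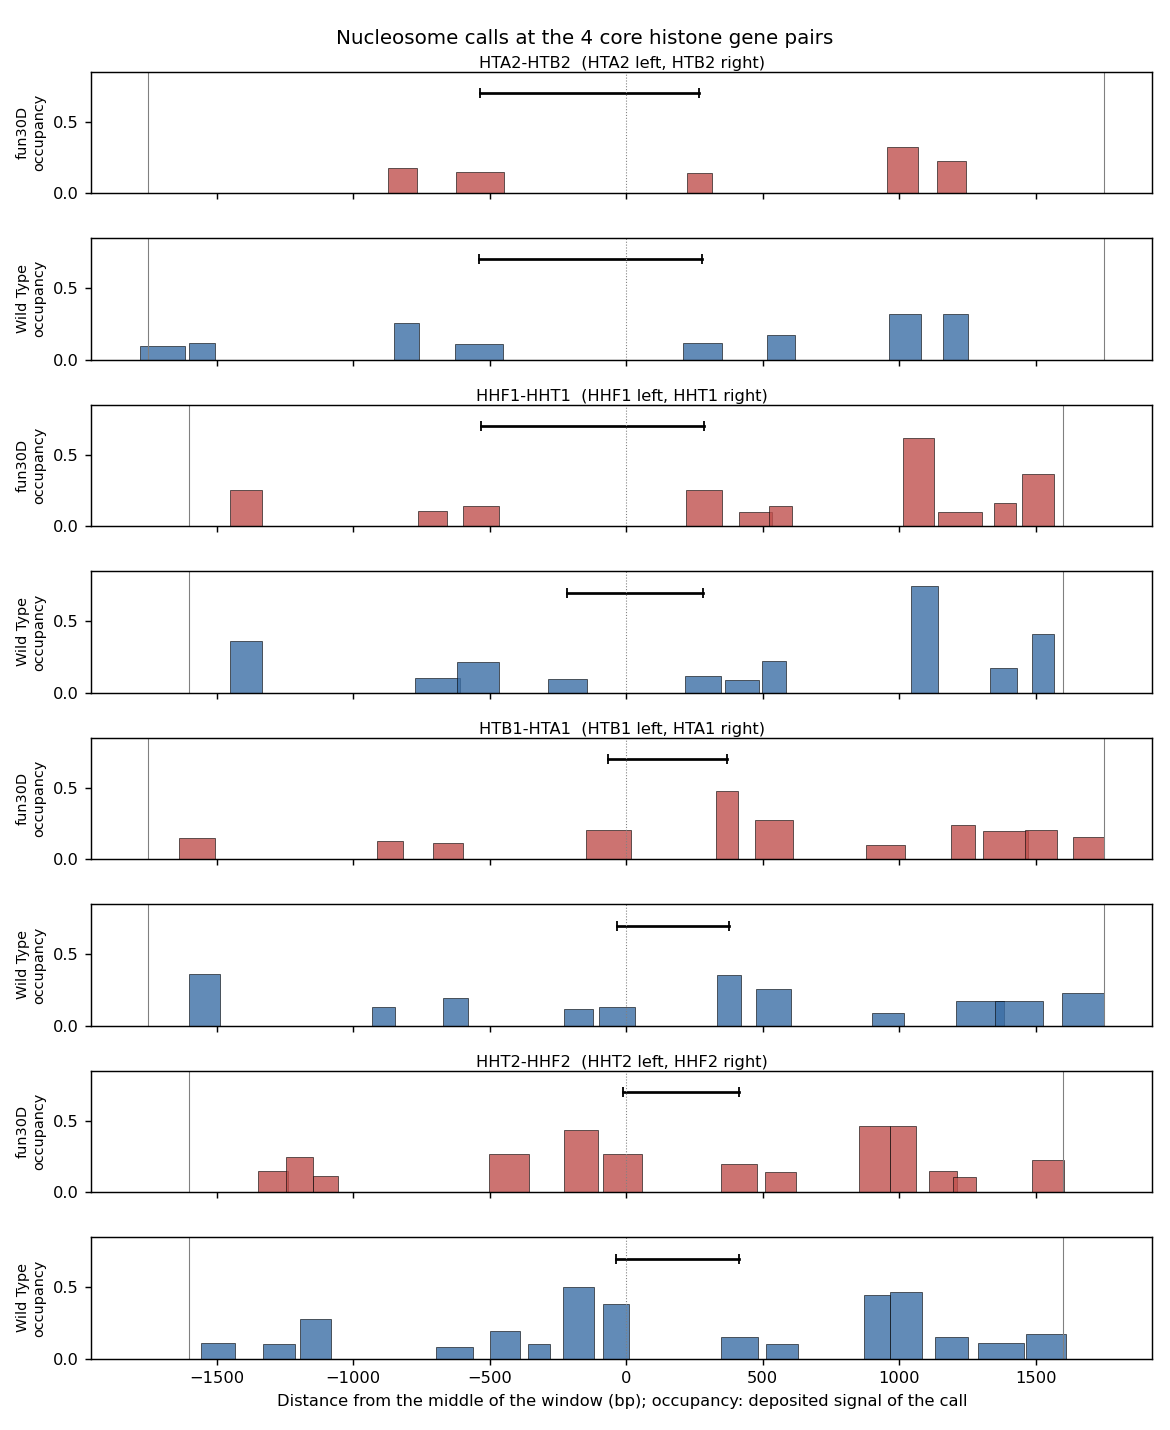
Nucleosome calls at the 4 histone gene pairs, with the fun30D library above the Wild Type library for each pair. The horizontal axis is distance from the middle of the window in bp, each bar spans the called width and its height is the occupancy signal; grey lines mark the window ends and the black line the promoter gap between call centres. The gap of HTA2-HTB2 is 803 bp in fun30D and 817 bp in Wild Type, and a weak Wild Type call of occupancy 0.0949 splits the gap of HHF1-HHT1.

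All histone pairs but HHT2-HHF2 carried fewer calls than the median genome window of their length, most of all HTA2-HTB2. The fun30D library had 5 calls in the HTA2-HTB2 window and the Wild Type library 8. Among windows of the same length laid end to end along all chromosomes the median was 15 calls in both libraries. Windows with at most as many calls made up 5.47% of all in fun30D and 10.1% in Wild Type. HTB1-HTA1 had 11 calls in each library, and 23.2% of fun30D windows and 23.4% of Wild Type windows had no more. The number was thus below the median but not rare.

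HHF1-HHT1 held 10 calls in fun30D and 10 in Wild Type, where the median window of its length had 13. Windows with no more calls were 23.2% of all in fun30D and 23.5% in Wild Type. HHT2-HHF2 was the only pair near or above the median, with 13 calls in fun30D (50.7% of windows had no more) and 15 in Wild Type (73.2%). In all, the windows had 2.91 calls per kb in fun30D and 3.28 in Wild Type, against 4.05 and 4.03 calls per kb over the whole genome.

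Calls covered 34.3% of the 13.4 kb of histone windows in fun30D and 39.3% in Wild Type, against 45.8% of the genome in either library. At HTA2-HTB2 coverage was 17.2% in fun30D and 27.3% in Wild Type. At HHT2-HHF2 it was 45.5% in fun30D and 55.8% in Wild Type. The remaining pairs differed little between the libraries, with 37.2% in both at HHF1-HHT1, and at HTB1-HTA1 38.4% in fun30D and 38.3% in Wild Type.

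**Figure D2:**
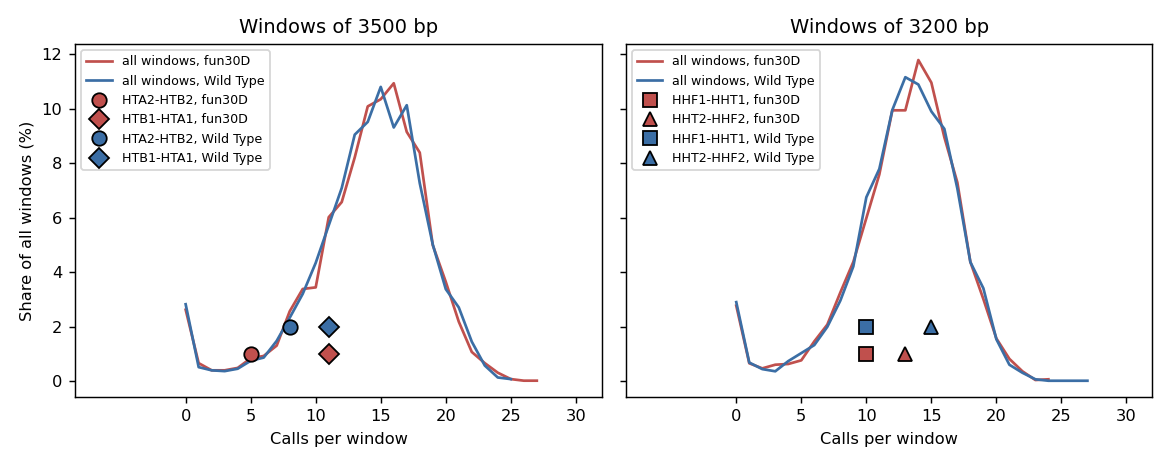
Number of calls in the histone windows (symbols) and in all windows of 3500 bp (left) and 3200 bp (right). The horizontal axis is the number of calls per window, the lines give the share of all windows in percent, and the height of the symbols carries no value. HTA2-HTB2 lies lowest with 5 calls in fun30D and 8 in Wild Type, against a median of 15.

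Occupancy of the histone calls was a little below that of all calls, within counting error. The median occupancy of the histone calls was 0.198 in fun30D and 0.171 in Wild Type, against 0.210 for all calls of either library. Of the fun30D histone calls 16 (41.0%, exact 95% interval 25.6 to 57.9%) were above the genome median, and of the Wild Type calls 17 (38.6%, 24.4 to 54.5%). Both intervals include an even division above and below the median, and intervals here cover counting error over calls only. The strongest histone call of both libraries lay at the far end of the HHF1-HHT1 window beyond HHT1, towards IPP1, at 257172 in fun30D with 0.618 and at 257193 in Wild Type with 0.743. The median width of histone calls was 115 bp in fun30D and 117 bp in Wild Type, close to 113 bp for all calls.

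The promoter gap was taken as the longest distance between centres of neighbouring calls whose midpoint lay in the middle zone. The H2A-H2B pair HTA2-HTB2 had a wide gap in both libraries. In fun30D it ran from 235715 to 236518, a distance of 803 bp, and in Wild Type from 235712 to 236529, a distance of 817 bp. Its flanking nucleosomes were therefore placed within 11 bp of each other in the libraries. Intervals at least this long were 2.36% of all intervals in fun30D and 2.30% in Wild Type. Such shares, here and for the other promoters, count single intervals, whereas each gap is the longest interval of its zone. They therefore do not tell how often a zone of this size holds such a gap, and make the gaps look rarer.

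Both flanks of this gap were below the genome median of occupancy, and the flank towards HTA2 was broad. The call on the HTA2 side had an occupancy of 0.147 in fun30D and 0.113 in Wild Type. It was 178 bp wide in fun30D and 177 bp wide in Wild Type, near the widest call of 180 bp in either file. The call on the other side, next to HTB2, had 0.138 in fun30D and 0.116 in Wild Type. It was 92 bp wide in fun30D and 141 bp wide in Wild Type. No call above the genome median of occupancy bordered this promoter in either library.

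At HHF1-HHT1 the libraries differed. The fun30D gap ran from 255568 to 256386, 818 bp, and 2.21% of fun30D intervals were as long. The Wild Type gap was 496 bp, from 255885 to 256381, and 8.63% of Wild Type intervals were as long. The difference came from a Wild Type call at 255885, which had an occupancy of 0.0949, just over the lowest deposited value, and no counterpart within 317 bp in fun30D. On the HHT1 side the flanking call stayed within 5 bp. The contrast rests on such weak calls. Without calls at or below the lower quartile of occupancy the gap was 818 bp in fun30D and 1083 bp in Wild Type, so its direction turned. That cut also removed the Wild Type flank at 256381 and kept its partner at 256386 in fun30D.

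That flanking call, at 256386 in fun30D and 256381 in Wild Type, was also the histone nucleosome with the largest rise in the mutant library. Its occupancy was 0.254 in fun30D and 0.114 in Wild Type, a ratio of 2.23. On the HHF1 side the fun30D flank at 255568 had 0.144, and its partner at 255558 in Wild Type had 0.212. That partner did not border the Wild Type gap, whose flank on this side was the call at 255885 with 0.0949. The fun30D flank towards HHF1 was thus lower than its partner and higher than the Wild Type flank.

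The HTB1-HTA1 pair, the other source of H2A and H2B, had a shorter gap that lay on the HTA1 side of the middle. It spanned 435 bp in fun30D, from 915185 to 915620, and 409 bp in Wild Type, from 915216 to 915625. As long or longer were 11.6% of fun30D intervals and 12.9% of Wild Type intervals. The flank at HTA1 was a narrow, well-occupied nucleosome, with 0.480 in fun30D and 0.356 in Wild Type, and its centre differed by 5 bp. The flank near the middle was weaker, with 0.201 in fun30D and 0.128 in Wild Type, and lay 31 bp further towards HTB1 in fun30D.

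A second Wild Type call sat in this middle zone, at 915074, with an occupancy of 0.119, and fun30D had none within 111 bp. Beside it the fun30D library had a call-free interval of 588 bp, from 914597 to 915185. Its midpoint lay 359 bp from the middle, just outside the zone, so it was not counted as the promoter gap.

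HHT2-HHF2 had nucleosomes above the genome median of occupancy in the middle of the window, next to each other. The call at 576236 in fun30D had 0.435, and its partner at 576226 in Wild Type 0.502. Next to it, 576388 in fun30D had 0.265 and 576362 in Wild Type had 0.384. This held in both libraries, and both calls were lower in fun30D. In Wild Type no other pair had a middle-zone call above the median, and in fun30D only the HHT1 flank at 256386 was. The gap lay between them and HHF2 and measured 426 bp in fun30D (576388 to 576814) and 453 bp in Wild Type (576362 to 576815). In fun30D 12.0% of intervals were as long, and in Wild Type 10.7%. The flank at HHF2 differed by 1 bp, with an occupancy of 0.198 in fun30D and 0.154 in Wild Type.

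**Figure D3:**
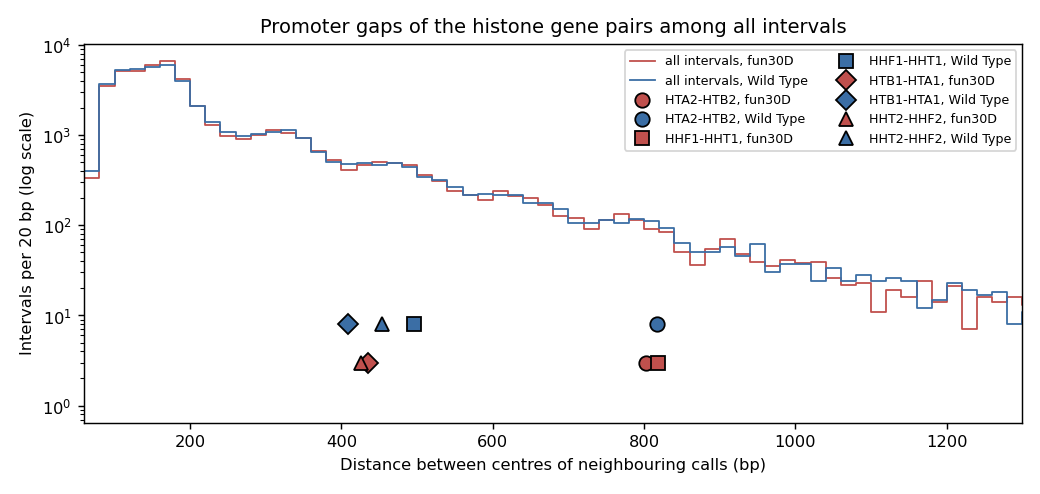
Promoter gaps (symbols), each the longest interval of its middle zone, and all intervals between neighbouring calls (lines). The horizontal axis is the distance between call centres in bp, and the vertical axis, which is a log scale, counts intervals per 20 bp; the height of the symbols carries no value. The gap of HTA2-HTB2 is near 800 bp in both libraries, the gap of HHF1-HHT1 only in fun30D (818 bp, against 496 bp in Wild Type), and the other gaps lie between 409 and 453 bp.

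Across the 4 promoters, the flank on the side of higher coordinates (HTB2, HHT1, HTA1 and HHF2) differed by at most 11 bp between the libraries. The median displacement over all genome pairs was 9 bp, so differences of this size were common. On the side of lower coordinates the flank differed by 3 bp at HTA2-HTB2, by 26 bp at HHT2-HHF2 and by 31 bp at HTB1-HTA1. At HHF1-HHT1 it was another nucleosome. The gap was 14 bp shorter in fun30D at HTA2-HTB2 and 27 bp shorter at HHT2-HHF2, and 26 bp longer at HTB1-HTA1 and 322 bp longer at HHF1-HHT1. With all calls kept, the pairs therefore had no common direction. The directions at HHF1-HHT1 and HTB1-HTA1 both turned without calls at or below the lower quartile of occupancy. The gap of HTB1-HTA1 was then 435 bp in fun30D and 1000 bp in Wild Type. With those calls left out the fun30D gap was the shorter at every pair, so the lack of a common direction depends on weak calls. The common direction after the cut depends on them too. At HTA2-HTB2, HHF1-HHT1 and HTB1-HTA1 the cut removed Wild Type flanks whose fun30D partners, within 31 bp, were kept.

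The middle zones held 5 calls in fun30D and 8 in Wild Type. All 5 fun30D calls had a Wild Type partner. The Wild Type calls without a partner numbered 3, at HHF1-HHT1 (255885), HTB1-HTA1 (915074) and HHT2-HHF2 (576082), and each had an occupancy below the lower quartile of all Wild Type calls. That at 576082 was 80 bp wide, the narrowest width in the files, with an occupancy of 0.104. Over the whole genome 15.2% of fun30D calls and 15.0% of Wild Type calls had no partner. The median occupancy of such Wild Type calls was 0.117, also below the lower quartile of 0.133. Coverage of the middle zones was 24.3% in fun30D and 34.4% in Wild Type, and the mean occupancy of their calls was 0.259 in fun30D and 0.195 in Wild Type. The higher mean went with the absence of the 3 weak calls. Over the 5 paired calls the mean was 0.259 in fun30D and 0.249 in Wild Type, and the summed occupancy of all middle-zone calls was 1.29 in fun30D and 1.56 in Wild Type.

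Coverage of the middle zone was lower in fun30D at HTA2-HTB2, HHF1-HHT1 and HTB1-HTA1, under each of 4 other zone settings as well. It was 13.3% in fun30D and 20.1% in Wild Type at HTA2-HTB2, and 18.7% in fun30D and 39.4% in Wild Type at HHF1-HHT1. With the middle moved by 100 bp to lower coordinates the values fell by more than 1.5 times, to 4.85% in fun30D and 6.13% in Wild Type at HTA2-HTB2, and to 4.42% in fun30D and 25.7% in Wild Type at HHF1-HHT1. At HTB1-HTA1 it was 26.5% in fun30D and 37.1% in Wild Type. At HHT2-HHF2 it was 38.8% in fun30D and 41.1% in Wild Type, but higher in fun30D under each of the other settings (by 1.25 to 8.13 percentage points), so no direction is given for that promoter. At HTA2-HTB2 both libraries had 1 call there, and the difference was one of called width.

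**Figure D4:**
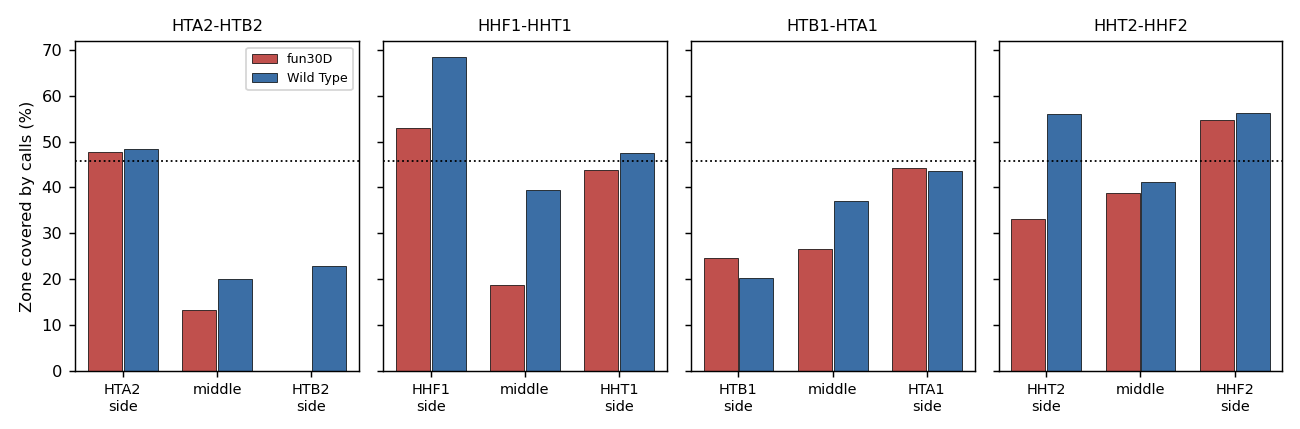
Share of each zone covered by calls, in percent, on the side of the first gene, in the middle zone and on the side of the second gene of each pair; fun30D bars are left of Wild Type bars. The dotted line is the coverage of the whole genome in fun30D, 45.8%. The middle zone of HHF1-HHT1 has 18.7% in fun30D and 39.4% in Wild Type, and the HTB2 side has no fun30D call; the small difference in the middle zone of HHT2-HHF2 turns round with other zone limits.

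Over the gene sides the coverage was 37.6% in fun30D and 45.4% in Wild Type, with 11 calls in fun30D and 13 in Wild Type. Both calls found only in the Wild Type library were below the median occupancy, as were 89.0% of all Wild Type calls without a partner. One was the Wild Type call at 236817 on the HTB2 side (occupancy 0.175), and the fun30D library had no call between 236518 and 237262, an interval of 744 bp. The other lay on the HHT2 side at 575771 in Wild Type, with 0.0839, close to the lowest value deposited.

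Among genes with calls in both libraries, HTA1 had the strongest nucleosomes. Besides its flanking call, that at 915792 in fun30D had 0.273 and its partner at 915789 in Wild Type had 0.257. On the HHF2 side the calls at 576814 and 576964 in fun30D had 0.198 and 0.141, against 0.154 and 0.105 for their partners in Wild Type. Both were slightly higher in fun30D and moved by 8 bp or less. On the HTB1 side there was 1 call per library, at 914597 in fun30D with 0.110 and at 914625 in Wild Type with 0.194.

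The sides of HHF1 and HHT1 had lower mean occupancies in the fun30D library. The side of HHF1 had a mean of 0.126 in fun30D and 0.159 in Wild Type over 2 calls each. The side of HHT1 had 0.120 in fun30D and 0.153 in Wild Type, also over 2 calls each. The strongest calls of these sides were lower in fun30D, at 255568 for HHF1 (0.144, against 0.212 at 255558 in Wild Type) and at 256666 for HHT1 (0.139, against 0.219 at 256641 in Wild Type). On the HHT2 side the strongest call was instead higher, with 0.266 at 575971 in fun30D and 0.192 at 575957 in Wild Type. HTA2 had only its flanking call.

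HTA1 and HTA2, and likewise HTB1 and HTB2, encode nearly the same protein, and both H3 genes and both H4 genes encode identical proteins. No source used here tells how reads that match more than one gene copy were placed. Its part in the call numbers on the gene sides was not tested.

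Displacement was measured on pairs, that is, calls that were each other's nearest in the other library with centres at most 73 bp apart. The windows gave 35 pairs, of which 14 were displaced by 20 bp or more (40%, exact 95% interval 23.9 to 57.9%). These include pairs beyond the gene sides, so the share is not one of promoters and histone genes alone. Over the genome 26.6% of pairs were displaced as far, a share inside that interval. The median displacement was 14 bp in the histone windows and 9 bp over all pairs. Of the displaced pairs 6 lay further to higher and 8 further to lower coordinates in fun30D.

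Weak nucleosomes had the larger share, in the windows as in the genome. Of the histone pairs, 23 had a mean occupancy at or below that of the median pair, and 11 of them were displaced, where 37.9% of all such pairs were. Of the other 12 histone pairs 3 were displaced, where 15.3% of all such pairs were.

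The gene pairs differed among themselves. HTA2-HTB2 had 0 of 5 pairs displaced (an upper limit of 52.2%), and its nucleosomes differed by 3 to 14 bp. HTB1-HTA1 had 7 of 10 displaced (70.0%, 34.8 to 93.3%), the only pair whose interval did not reach the 26.6% of all genome pairs. That interval did include the 37.9% found among all genome pairs with mean occupancy at or below the median pair. HHF1-HHT1 had 3 of 9 displaced and HHT2-HHF2 had 4 of 11. Neighbouring nucleosomes are not independent, which the intervals do not take into account, and HTB1-HTA1 is the highest of 4 pairs looked at.

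At HTB1-HTA1 the displaced nucleosomes spread over the window while the HTA1 side kept its place. The largest displacements lay beyond HTA1, towards ADK1, where the call at 916483 in fun30D was 62 bp lower than that at 916545 in Wild Type, and the call at 916639 in fun30D was 49 bp lower than that at 916688 in Wild Type. The next nucleosome, at 916944 in fun30D and 916923 in Wild Type, lay 21 bp the other way. Between them fun30D had an extra call at 916769, with an occupancy of 0.206, so this stretch held 4 calls in fun30D and 3 in Wild Type. On the HTB1 side the call at 914597 in fun30D was 28 bp lower than its partner. Just beyond that side, the call at 914386 in fun30D was 25 bp higher than its partner at 914361 in Wild Type. The call at 913678 in fun30D, at the CRF1 end, was 28 bp lower than 913706 in Wild Type.

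The displaced nucleosomes of HHF1-HHT1 were all on the HHT1 side of the middle. The call at 256574 in fun30D was 50 bp higher than that at 256524 in Wild Type, and the call at 256666 was 25 bp higher than that at 256641. The strong call towards IPP1 moved 21 bp to lower coordinates. At HHT2-HHF2 they were the middle call at 576388 in fun30D (26 bp higher), the call at 577561 towards KTR5 (30 bp lower than 577591 in Wild Type), and a pair of calls at the SIW14 end. Those were 575106 in fun30D, 22 bp lower than 575128 in Wild Type, and 575299 in fun30D, 37 bp higher than 575262 in Wild Type.

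**Figure D5:**
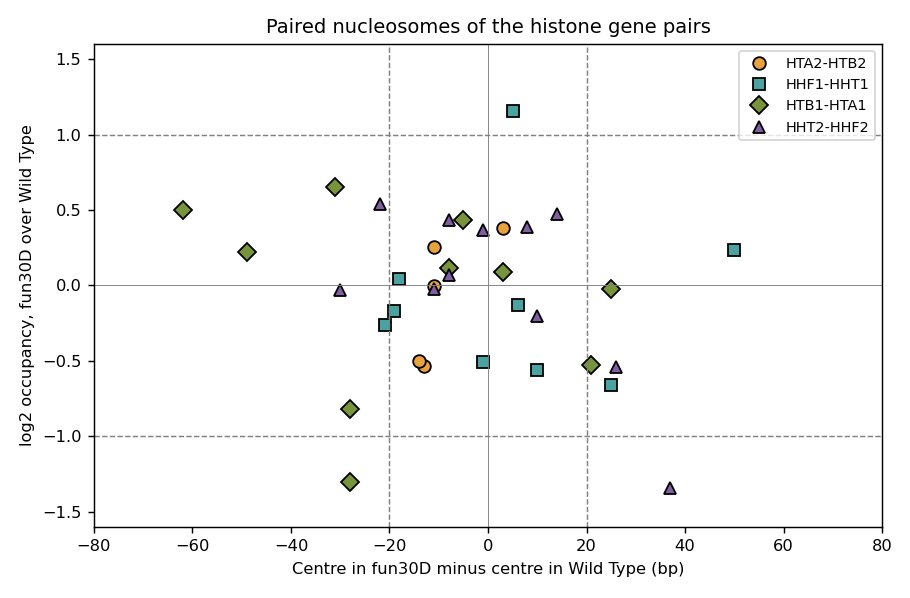
Each paired nucleosome of the histone windows by displacement (horizontal axis, fun30D centre minus Wild Type centre in bp) and by the log2 ratio of occupancy of fun30D over Wild Type (vertical axis). Dashed lines mark 20 bp and a 2-fold difference. Of 35 pairs, 14 lie beyond the vertical lines and 3 beyond the horizontal ones, and the pairs of HTA2-HTB2 stay inside both.

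Occupancy differed 2-fold or more in 3 of the 35 pairs (8.57%, 1.80 to 23.1%), where 4.87% of all pairs differed as much. One was the flank at HHT1, described above, which was higher in fun30D. Of all pairs 2.59% were as much higher in fun30D. The others were lower in fun30D and lay at the outer ends of windows. At the CRF1 end of HTB1-HTA1, the call at 913678 in fun30D had 0.146 and that at 913706 in Wild Type had 0.362. At the SIW14 end of HHT2-HHF2, the call at 575299 in fun30D had 0.110 and that at 575262 in Wild Type had 0.280. Of all pairs 2.29% were as much lower in fun30D.

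The SIW14 end held 3 calls in each library, at different places. The fun30D call at 575204, with an occupancy of 0.249, lay 58 bp from the nearest Wild Type call and was the partner of none. The Wild Type call at 574905, with 0.108, had no partner either. The strongest nucleosome of this stretch was thus at 575204 in fun30D and at 575262 in Wild Type, and the pair with the lower occupancy in fun30D joined the Wild Type call to a weaker neighbour.

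The median log2 ratio of the 35 pairs was 0.00 (-0.21 to 0.24, interval from order statistics), and it was 0.01 over all pairs. In fun30D 17 pairs were higher and 18 lower. By gene pair the median was 0.10 at HTB1-HTA1, 0.07 at HHT2-HHF2, 0.00 at HTA2-HTB2 and -0.17 at HHF1-HHT1, each with an interval that included 0.

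Calls without a partner numbered 4 of 39 in fun30D (10.3%, 2.87 to 24.2%) and 9 of 44 in Wild Type (20.5%, 9.80 to 35.3%). The shares over all calls were 15.2% in fun30D and 15.0% in Wild Type, inside these intervals. HTA2-HTB2 had 0 of 5 in fun30D and 3 of 8 in Wild Type. Besides the call at 236817, those were 234552 with an occupancy of 0.0948 and 234697 with 0.114, at the UTP20 end. The fun30D library had an interval of 1019 bp there, from 234413 to 235432.

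The last Wild Type call without a partner was at 577772 in HHT2-HHF2, with 0.108. All 9 were below the genome median, as were 89.0% of all Wild Type calls without a partner, so this was near the background. In fun30D the calls without a partner not yet named were 257322 at HHF1-HHT1, with 0.101, and 577639 at HHT2-HHF2, with 0.108. Of the fun30D calls without a partner 3 of 4 were below the genome median, as were 90.4% of all such fun30D calls. Of these 4, the call at 916769 (0.206) was near the median and that at 575204 (0.249) above it. Some of the weak calls may lie just under the lowest listed value in the other library, which was not tested.

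Long intervals of 500 bp or more between neighbouring calls were 8 of the 35 intervals inside the windows in fun30D (22.9%, 10.4 to 40.1%) and 6 of 40 in Wild Type (15.0%, 5.71 to 29.8%). In the genome they were 8.31% of intervals in fun30D and 8.45% in Wild Type. The difference between the libraries was 2 intervals, was not tested and varies with the limit. A Wild Type interval of 496 bp fell short of it and a fun30D interval of 506 bp passed it. At 450 bp or more the share was 22.9% in fun30D (8 of 35) and 22.5% in Wild Type (9 of 40), where 10.8% of all fun30D intervals and 10.9% of all Wild Type intervals were as long.

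These long intervals were not only at promoters. On the side of lower coordinates each pair had one beyond or over the first gene in both libraries. At HHF1-HHT1 it ran from 254708 to 255391 in fun30D, 683 bp, and from 254709 to 255409 in Wild Type, 700 bp. At HTB1-HTA1 it measured 708 bp in fun30D and 655 bp in Wild Type, and at HHT2-HHF2 672 bp in fun30D and 509 bp in Wild Type. In Wild Type the interval of HTA2-HTB2 measured 748 bp, where fun30D had the 1019 bp already given, which reached past the window.

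Regular spacing, with neighbouring centres from 140 to below 190 bp apart, was found in 11 of 35 intervals inside the windows in fun30D (31.4%, 16.9 to 49.3%) and in 14 of 40 in Wild Type (35.0%, 20.6 to 51.7%). In the genome 31.5% of fun30D and 29.3% of Wild Type intervals were so spaced, within these intervals.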

How the data were processed

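The authors deposited 1 list of nucleosome calls per library, with chromosome, centre and width in bp and an occupancy signal, per the file headers. The aligner was Bowtie 0.12.7 according to the submitters' processing notes. No source used here gives the build, the nucleosome caller, the scaling or the placement of repeated reads. The signal is not a count, so the depth is unknown. The analysis used Python 3.11.15, numpy 2.4.6, pandas 2.3.3 and scipy 1.17.1. Calls of chromosomes 1 to 16 were compared. Calls of the 2 libraries were partners when each was nearest to the other within 73 bp. Displacement is the fun30D minus the Wild Type centre, and log2 ratios are fun30D over Wild Type. Shares have exact (Clopper-Pearson) 95% intervals for counting error only. Pairing was tested on simulated calls spaced more widely than many real neighbouring calls. That test therefore says little about wrong pairing among closely spaced calls. The members, windows, zones and named calls were chosen with earlier results of these data known. Named calls are the gap flanks, all calls of the middle zones, the strongest call per gene side, and displaced, 2-fold different and unpaired calls. The 500 bp limit, flanking windows, occupancy classes and spacing were added after values had been seen. The planned motif search and promoter sequences were not used here. All 8 genes matched the R64 table, which gave names, order and lengths only.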

Additional observations from a re-analysis of the deposited data

How the results depend on the processing

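With 1 library per genotype, no replicate could be left out. No paired analysis was possible because each genotype has a single library. Alternatives gave 122 values, of which 103 stayed within the interval of a share or median, within 1.5 times a count, coverage or mean occupancy, or within 20 bp of a gap. Leaving out any 1 gene pair, other pairing distances and windows 200 bp longer or shorter moved none of the results beyond these limits. The limits are wide, however. Without HTB1-HTA1 the displaced share was 28% (7 of 25), near the 26.6% of the genome, and without HTA2-HTB2 it was 46.7%. In the shorter windows 15.8% of Wild Type calls had no partner, near the 15.0% of the genome, and in the longer windows 18%. Above the genome median of occupancy, the windows held 16 calls in fun30D and 17 in Wild Type. Of the fun30D calls 25% then had no partner, and 0% of the pairs differed 2-fold. Calls were paired anew for this setting, so a call could lose a partner that lay below the median. The displaced share was 68.6% at 10 bp or more and 8.57% at 40 bp or more. These moves follow from the thresholds. Genome shares at these settings were not counted, so the values cannot be set against the genome. The limits of 450 and 550 bp for long intervals were added after the data had been seen. Between facing call edges the gaps were 668 bp in fun30D and 658 bp in Wild Type at HTA2-HTB2, 685.5 bp in fun30D and 359 bp in Wild Type at HHF1-HHT1, 312 bp in fun30D and 298.5 bp in Wild Type at HTB1-HTA1, and 288 bp in fun30D and 336.5 bp in Wild Type at HHT2-HHF2, so that at HTA2-HTB2 the fun30D gap was the longer by this measure. Without calls at or below the lower quartile of occupancy, the gap was 803 bp in fun30D and 1372 bp in Wild Type at HTA2-HTB2, 818 bp in fun30D and 1083 bp in Wild Type at HHF1-HHT1, and 435 bp in fun30D and 1000 bp in Wild Type at HTB1-HTA1, since weak Wild Type calls were removed. Some of the removed Wild Type calls had fun30D partners that were kept. The fun30D gap was then the shorter at HHF1-HHT1 and HTB1-HTA1, where it is otherwise the longer. At HHT2-HHF2 the gaps stayed at 426 bp in fun30D and 453 bp in Wild Type, so the fun30D gap was then the shorter at every pair. With a middle zone of 450 bp the gap of HTB1-HTA1 was 588 bp in fun30D and 449 bp in Wild Type. Occupancies near the lowest listed value limit all results on weak calls.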

Other observations

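The stretches of equal length on both sides of each window were examined after the windows had been seen. Next to HTA2-HTB2 they held 13 calls on the UTP20 side and 16 on the ECM15 side, in fun30D as in Wild Type, against 5 calls in fun30D and 8 in Wild Type in the window itself. The low number at HTA2-HTB2 therefore did not extend into its surroundings. Around HTB1-HTA1 there were 14 and 16 calls in fun30D and 14 and 14 in Wild Type, on the CRF1 and ADK1 sides, with 11 in the window in either library. At the H3-H4 pairs the stretch on one side held few calls. Past the IPP1 end of HHF1-HHT1 the stretch held 6 calls in fun30D and 5 in Wild Type, covering 18.1% of it in fun30D and 18.6% in Wild Type. Past the SIW14 end of HHT2-HHF2 it held 8 calls in fun30D and 7 in Wild Type. On the opposite sides there were 15 calls in fun30D and 16 in Wild Type at HHF1-HHT1, and 16 in fun30D and 15 in Wild Type at HHT2-HHF2.

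The H2A-H2B pairs together had 2.29 calls per kb in fun30D and 2.71 in Wild Type. The H3-H4 pairs together had 3.59 calls per kb in fun30D and 3.91 in Wild Type. The difference was that of HTA2-HTB2, the lowest (1.43 in fun30D and 2.29 in Wild Type), and of HHT2-HHF2, the highest (4.06 in fun30D and 4.69 in Wild Type). HTB1-HTA1 had 3.14 calls per kb and HHF1-HHT1 3.12, in fun30D as in Wild Type.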
